A study of Homo sapiens with 2 samples.

Results

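On human chromosome 19, 6 intervals taken to be zinc finger gene clusters were examined for peaks of Rb, the retinoblastoma protein. The cells were VCaP and LNCaP, which derive from human prostate cancer. A peak belonged to a cluster when its summit, the position of highest tag coverage, lay in 1 of 6 hg19 intervals on chromosome 19. Cluster 1 was taken as 11.7 to 12.7 Mb, cluster 2 as 19.8 to 24.4 Mb, cluster 3 as 36.6 to 38.5 Mb, cluster 4 as 44.3 to 45.0 Mb, cluster 5 as 52.4 to 54.0 Mb and cluster 6 as 56.5 to 59.1 Mb. Of 9423 peaks in the VCaP list, 133 lay in these intervals, and of 21994 in the LNCaP list, 258. They were 21.1% and 22.2% of the peaks on chromosome 19, in intervals that make up 22.3% of its compared length. The rule uses the position of a summit and no other value of a peak. That the intervals hold zinc finger gene clusters is taken from the rule and was not checked against an hg19 annotation. Whether the rest of chromosome 19, used for comparison, holds further zinc finger gene clusters was not checked either.

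Rb binding was mapped by chromatin immunoprecipitation with a mouse monoclonal antibody against Rb, followed by sequencing. Both lines are established cultures of prostate cancer cells with an androgen receptor. Both had been kept for 3 days in medium with 5% hormone-stripped serum before a 4 h exposure to 10 nM dihydrotestosterone (DHT), an androgen, so that the treatment is common to both groups. Each line is represented by 1 library, with 8691938 tags after filtering in VCaP and 3671482 in LNCaP, and peaks were called without a control library. Differences between the lists therefore compare these libraries, without a test between the lines. The 95% intervals given below cover counting error only, and peaks of 1 library are not replicates.

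Zinc finger proteins of the C2H2 type form the largest family of human transcription factors, and chromosome 19 carries many of their genes in tandem arrays that arose by repeated duplication. Many members have a KRAB domain, through which they recruit the corepressor TRIM28 (KAP1) and the heterochromatin mark H3K9me3, and many silence transposable elements. Rb is best known as a partner of E2F transcription factors at the promoters of cell cycle genes. RefSeq (GRCh38.p14) lists 570 protein-coding genes with symbols beginning with ZNF, ZFP, ZSCAN, ZIM, ZIK, MZF or ZKSCAN, of which 266 (46.7%) are on chromosome 19. That table is of another build than the peaks, so genes were not assigned to peaks here. Whether a peak lies at the start of a zinc finger gene, at its zinc finger exon or at a neighbouring gene was not analysed here.

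Peaks were found in all 6 clusters in both lists, at a density that differed several-fold between them. Cluster 6, next to the end of the long arm, was the densest in both, with 51 peaks in VCaP and 81 in LNCaP, or 19.6 per Mb (14.6 to 25.8) and 31.2 per Mb (24.7 to 38.7). Cluster 5 followed with 26 and 49 peaks, or 16.3 per Mb (10.6 to 23.8) and 30.6 per Mb (22.7 to 40.5). Cluster 1 held 14 and 29 peaks over 1 Mb, with intervals of 7.65 to 23.5 and 19.4 to 41.6. The density in cluster 3 was 13.7 per Mb in VCaP (26 peaks, 8.94 to 20.1) and 22.6 per Mb in LNCaP (43 peaks, 16.4 to 30.5). In cluster 4 the 7 VCaP and 14 LNCaP peaks gave 10 per Mb (4.02 to 20.6) and 20 per Mb (10.9 to 33.6). These 5 clusters came in the same order in both lists, although their intervals overlapped within each list.

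Cluster 2, the largest of the 6 and the one beside the centromere, was the sparsest in both lists. It spans 4.6 Mb and held 9 peaks in VCaP, or 1.96 per Mb (0.895 to 3.71), and 42 in LNCaP, or 9.13 per Mb (6.58 to 12.3). Its interval lay below those of all the other clusters in VCaP. In LNCaP it lay below the intervals of clusters 1, 3, 5 and 6 and overlapped that of cluster 4. Pooled over the 6 clusters, the density was 10.7 per Mb in VCaP (8.98 to 12.7) and 20.8 in LNCaP (18.3 to 23.5). The rest of chromosome 19 had 11.5 per Mb in VCaP (10.5 to 12.5) and 20.8 in LNCaP (19.5 to 22.2), over 43.3 Mb between the first and last summit without the longest empty stretch. Without cluster 2, a choice made after seeing the data, the clusters had 15.9 peaks per Mb in VCaP (13.2 to 18.95) and 27.7 in LNCaP (24.1 to 31.6), with intervals above those of the rest of the chromosome. The numbers depend on the limit for a peak: at a −log10 q of at least 5, 78 VCaP members were left.

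**Figure D1:**
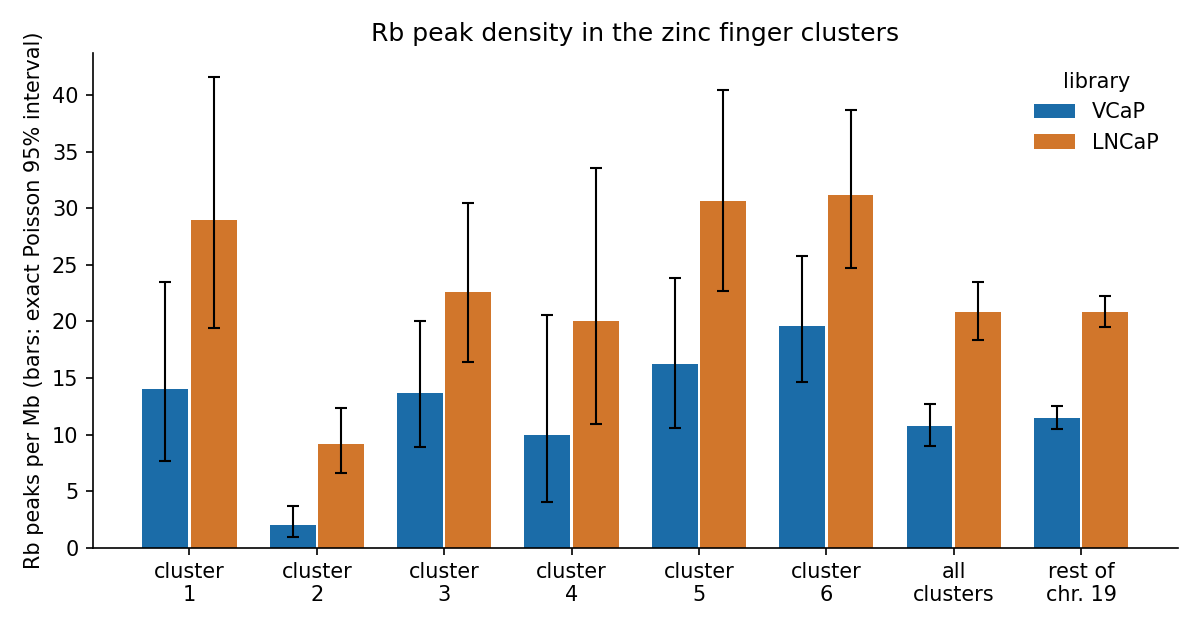
Rb peaks per Mb (vertical axis) in each of the 6 clusters, in all clusters together and in the rest of chromosome 19, for the VCaP (blue) and LNCaP (orange) library; bars are counts over length and whiskers exact Poisson 95% intervals. Cluster 2 is the lowest in both libraries, with 1.96 and 9.13 per Mb, and cluster 6 the highest, with 19.6 and 31.2.

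LNCaP had more peaks than VCaP in each cluster, by a ratio that was highest in cluster 2. Over all clusters there were 1.94 LNCaP peaks for each VCaP peak (1.57 to 2.41). It was 1.81 (1.63 to 2.03) in the rest of chromosome 19 and 2.34 (2.28 to 2.39) over chromosomes 1 to 22 and X. Cluster 2 had a ratio of 4.67 (2.24 to 10.9), cluster 1 of 2.07 (1.06 to 4.24), cluster 4 of 2 (0.755 to 5.86), cluster 5 of 1.88 (1.15 to 3.16), cluster 3 of 1.65 (0.993 to 2.80) and cluster 6 of 1.59 (1.11 to 2.30). The interval of cluster 2 overlapped those of clusters 1, 3, 4, 5 and 6, narrowly for cluster 6. It lay above that of the rest of the chromosome but contained the ratio over chromosomes 1 to 22 and X, 2.34. Without cluster 2 the ratio was 1.74 (1.39 to 2.19).

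Within cluster 2 VCaP peaks were found in 3 of 5 equal parts and LNCaP peaks in all of them. Counted from the short-arm side, these parts held 0, 1, 5, 0 and 3 peaks in VCaP and 8, 11, 9, 4 and 10 in LNCaP. The first 12 LNCaP peaks, between chr19:19843530 and chr19:21182912, had no VCaP counterpart, as was the case for 69.8% of all LNCaP peaks. Their fold enrichment, the tag coverage at the summit relative to the local background, had a median of 7.48 (4.30 to 8.95), and their pileup, the number of tags over the summit, was 7 to 18. A second run of 10 LNCaP peaks without counterpart lay at chr19:23257899-23946000, with folds of 4.39 to 11.1. Outside cluster 2 the longest such run had 8 peaks, at chr19:11805528-11925279 in cluster 1. In VCaP the longest run without an LNCaP counterpart had 3 peaks, at chr19:11896054-11959779, which lies in the same part of cluster 1, while 28.8% of all VCaP peaks had none.

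Neighbouring summits lay a median of 42.2 kb apart in VCaP (quartiles 21.8 and 86.4, 127 distances) and 31.5 kb in LNCaP (17.2 and 51.7, 252 distances). In the rest of chromosome 19 the medians were 40.2 kb (18.6 and 94.0) and 27.7 kb (11.98 and 54.0), and over all chromosomes 102.7 kb and 52.3 kb. The shortest typical distance was in cluster 6, with medians of 27.9 kb in VCaP and 22.7 kb in LNCaP. Cluster 2 had the longest in VCaP, with 122.5 kb, against 46.2 kb in LNCaP. The medians of the other clusters were 56.2 and 29.9 kb in cluster 1, 65.2 and 38.2 kb in cluster 3, 92.1 and 47.4 kb in cluster 4, and 53.4 and 31.2 kb in cluster 5, in VCaP and LNCaP in this order.

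The widest distance between neighbouring peaks began at the same site in both lists. From the shared peak at chr19:22034414-22034931 (VCaP) the next summit was 2063 kb away in VCaP, and from its LNCaP counterpart at chr19:22034318-22034995 it was 1223 kb away. Both stretches lie in cluster 2. Outside cluster 2 no distance exceeded 401 kb in VCaP (from chr19:57350909-57351190, cluster 6) or 187 kb in LNCaP (from chr19:38210064-38210900, cluster 3). In cluster 3 that site also opened the widest VCaP distance, 187 kb from chr19:38210166-38210437.

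Distances under 1 kb numbered 5 of 127 in VCaP (3.94%) and 16 of 252 in LNCaP (6.35%), of which 9 were in cluster 5 and 4 in cluster 3. Over all chromosomes the shares were 2.70% and 6.39%, and in the rest of chromosome 19 they were 2.04% and 5.47%. Under 10 kb cluster 6 had the most LNCaP distances, 12 of 80 (15.0%). The LNCaP share was 15.5% over all chromosomes and 20.9% in the rest of chromosome 19. In cluster 5 the 9 distances under 1 kb were also the only ones under 10 kb, of 48 in all (18.75%). All other neighbours there lay at least that far apart. The LNCaP peaks at chr19:53193159-53194386 formed a triplet, and the other sets within 1 kb were doublets. At chr19:52692768-52693859 a single LNCaP peak of 1092 bp, the longest of all members, overlapped both peaks of a VCaP doublet. A single LNCaP peak also overlapped both members of a VCaP doublet, in part at 1 of them, at chr19:53141192-53141826 and at chr19:58090111-58090596. The latter doublet was the closest VCaP pair, with summits 399 bp apart. At the lower end of cluster 3, near chr19:36605462 in LNCaP and chr19:36605754 in VCaP, both lists had a doublet. The reverse, 1 VCaP peak overlapping both peaks of an LNCaP doublet, occurred once, at chr19:37997309-37997954 in cluster 3. Longer runs with at most 20 kb between neighbours reached 5 peaks in VCaP, at chr19:58873927-58920338, and 6 peaks in LNCaP, at chr19:58070450-58144955, chr19:58399952-58459331 and chr19:58858829-58920511, all in cluster 6.

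**Figure D2:**
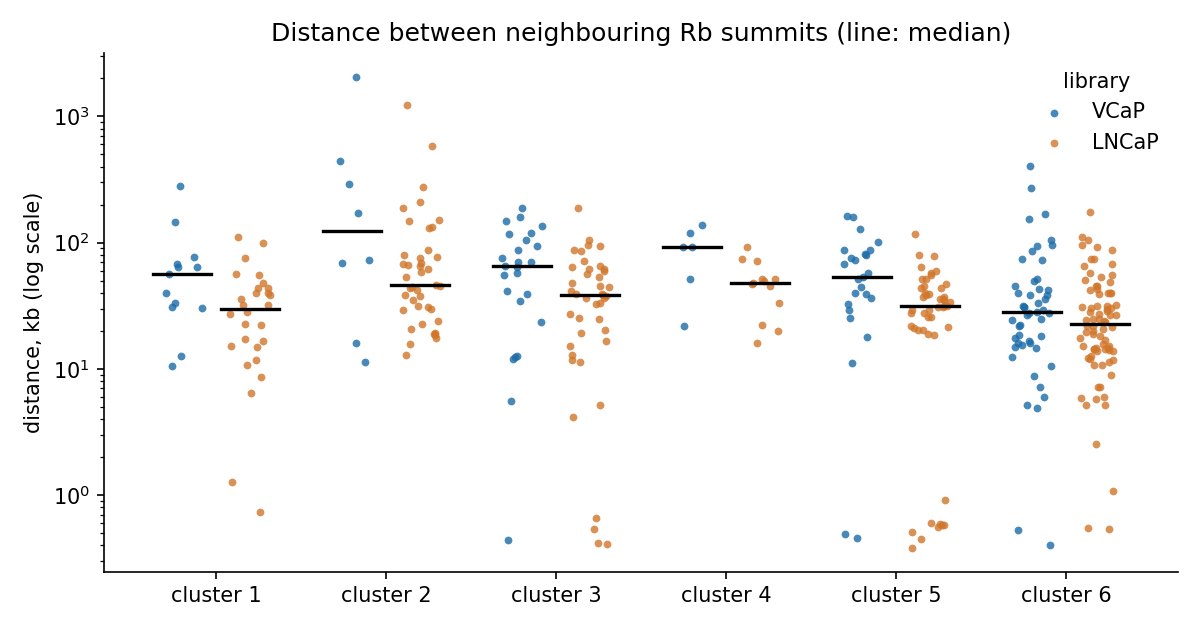
Distance in kb (log scale) between each Rb summit and the next one of the same library in the same cluster, with black lines at the medians. Cluster 6 has the shortest medians (27.9 kb in VCaP and 22.7 kb in LNCaP), cluster 2 the single widest distances, and the 9 LNCaP points under 1 kb in cluster 5 stand apart from its other distances.

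Most VCaP peaks of the clusters had an LNCaP counterpart, and fewer of the LNCaP peaks had one in VCaP. Counting an overlap of at least 1 bp, 111 of 133 VCaP peaks were overlapped, or 83.5% (76.0 to 89.3), against a background of 71.2% over all VCaP peaks. From the LNCaP side 109 of 258 were overlapped, or 42.2% (36.1 to 48.5), against a background of 30.2%. The rest of chromosome 19 had similar shares, 81.3% (77.6 to 84.6) and 44.8% (41.5 to 48.1), and both shares were above those of the other chromosomes, 70.4% (69.5 to 71.4) and 29.4% (28.8 to 30.1). The higher share was thus found on chromosome 19 inside and outside the clusters, whose intervals overlapped. When the overlap had to cover at least 50% of both peaks, the shares were 53.4% in VCaP and 27.5% in LNCaP. The VCaP share also depends on the length of the LNCaP list, and was 57.9% with only as many LNCaP peaks of highest fold as the VCaP list has. No background over all peaks is given for these 50% and equal-length settings. Their shares are therefore not comparable with 71.2% and 30.2%, which are for an overlap of 1 bp.

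Among the clusters the VCaP share ran from 9 of 14 in cluster 1 (64.3%, 35.1 to 87.2) to 24 of 26 in cluster 5 (92.3%, 74.9 to 99.1). It was 23 of 26 in cluster 3, 6 of 7 in cluster 4, 42 of 51 in cluster 6 and 7 of 9 in cluster 2, with intervals that all overlapped. The LNCaP share was lowest in cluster 2, with 7 of 42 or 16.7% (6.97 to 31.4), and 31.0% (15.3 to 50.8) in cluster 1. Clusters 3, 4, 5 and 6 had 55.8% (39.9 to 70.9), 42.9% (17.7 to 71.1), 44.9% (30.7 to 59.8) and 50.6% (39.3 to 61.9). The intervals of cluster 2 and of clusters 3 and 6 did not overlap, and that of cluster 5 met that of cluster 2 only at its edge. The LNCaP share of cluster 2 was limited by its peak numbers, 9 in VCaP beside 42 in LNCaP. Of those 9 VCaP peaks, 7 were overlapped.

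**Figure D3:**
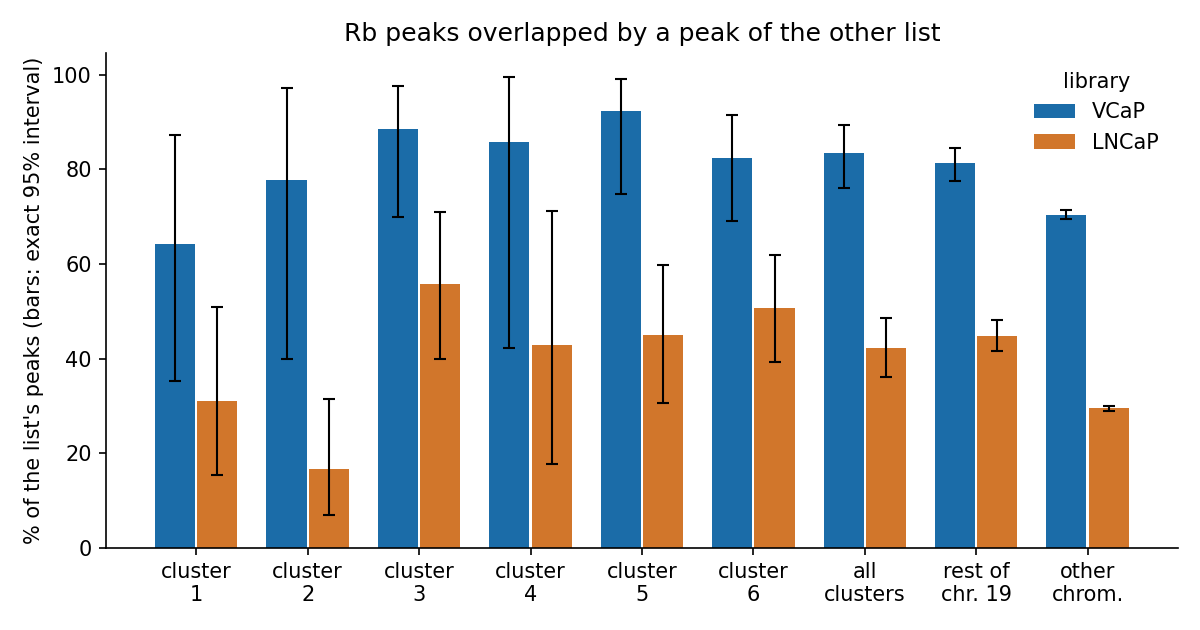
Share of each library's Rb peaks (vertical axis, %) overlapped by at least 1 bp by a peak of the other library, in the 6 clusters, all clusters, the rest of chromosome 19 and the other chromosomes; whiskers are exact 95% binomial intervals. All clusters together stand at 83.5% in VCaP and 42.2% in LNCaP, close to the rest of chromosome 19. The LNCaP share is lowest in cluster 2 (16.7%), which has 9 VCaP peaks beside 42 in LNCaP.

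Over all clusters, peaks without a counterpart had lower medians of pileup, length and fold than those with one. In VCaP the 22 unshared peaks had a median pileup of 10 tags, a length of 252 bp and a fold enrichment of 5.27, against 13 tags, 350 bp and 5.69 for the shared ones. In LNCaP the 149 unshared peaks had medians of 13 tags, 398 bp and 6.01, against 18 tags, 572 bp and 7.52. Single clusters did not all follow. In cluster 2 the 35 unshared LNCaP peaks had higher medians of fold (7.15 against 6.46) and pileup (13 against 12) than the 7 shared. The 2 unshared VCaP peaks there had the greater median length (302.5 against 277 bp at 7 shared). Fold was also the higher in the 8 unshared LNCaP peaks of cluster 4 (5.49 against 5.38 at 6 shared). The same held for the 3 unshared VCaP peaks of cluster 3 (5.46 against 5.26 at 23 shared). Of the unshared VCaP peaks, 5 (22.7%) lay within 1 kb of an LNCaP summit and 10 (45.5%) more than 10 kb from any, against 9.17% and 73.3% over all chromosomes. Of the unshared LNCaP peaks, 15 (10.1%) lay within 1 kb of a VCaP summit, 8 of them in cluster 5, and 125 (83.9%) lay more than 10 kb away, against 4.33% and 87.9% over all chromosomes. The nearest VCaP summit was a median of 39.1 kb from an unshared LNCaP peak in all clusters and 151.7 kb in cluster 2.

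Some unshared LNCaP peaks were among the most enriched members. The highest, at chr19:56879443-56880004 in cluster 6, had a fold enrichment of 12.2, a pileup of 22 and the nearest VCaP summit lay 25051 bp away. In cluster 2 the peak at chr19:23257899-23258433 had a fold of 11.1 and a pileup of 26, the highest of that cluster, and the nearest VCaP summit was 839405 bp away. The highest unshared peaks of clusters 1, 3, 4 and 5 had folds of 7.92 (chr19:11877701-11878247), 9.32 (chr19:37095751-37096743), 6.43 (chr19:44506719-44507487) and 9.03 (chr19:52956595-52957059). In VCaP the highest unshared peak was at chr19:58545122-58545666 in cluster 6, with a fold of 6.98 and a pileup of 14. Those of clusters 1, 2, 3, 4 and 5 had folds of 6.39, 6.47, 6.08, 3.92 and 4.97.

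At a fold enrichment of at least 10 there were 2 of 133 peaks in VCaP (1.504%), against a background of 3.32% of the VCaP list. LNCaP had 15 of 258 (5.81%), against a background of 8.02%. In the rest of chromosome 19 the shares were 5.23% (26 of 497 peaks) in VCaP and 4.88% (44 of 902) in LNCaP. The share of the clusters was thus the lower in VCaP, on 2 peaks, and close to that of the rest in LNCaP. Cluster 6 held both of the VCaP peaks and 11 of the LNCaP peaks, or 13.6% of its 81. Clusters 1 and 2 held 2 each in LNCaP, and clusters 3, 4 and 5 none in either list. Of the 15 LNCaP peaks, 13 had a VCaP counterpart, against a background of 77.6% of LNCaP peaks at that fold. Both VCaP peaks had an LNCaP counterpart, against a background of 90.7%.

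The leading site of VCaP was chr19:58427983-58428332 in cluster 6. It had a pileup of 38 tags and a fold enrichment of 12.3, rank 136 of the 9393 VCaP peaks, and its LNCaP counterpart had 27 tags and a fold of 9.89. The next site, chr19:58912542-58913128, had 29 tags and a fold of 10.1 in VCaP and 32 tags and 8.81 in LNCaP. Next in order was chr19:58739897-58740229, with folds of 8.85 in VCaP and 8.53 in LNCaP, followed by chr19:58458980-58459348 with 8.76 and 8.62. At chr19:53561435-53561682, the highest VCaP peak of cluster 5, the folds were 8.49 and 8.44. These first 5 sites were unlike most pairs in having the higher fold in VCaP, by little in the last 3 of them. At chr19:58962643-58963361, with 719 bp the longest VCaP member, the LNCaP fold was the higher, 9.83 against 8.40. The last of the 10 highest were chr19:53238121-53238564 (7.82 in VCaP and 8.57 in LNCaP) and chr19:59025381-59025666 (7.63 and 8.76), besides 2 sites that also led the LNCaP list.

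Those 2 sites were the highest LNCaP members. At chr19:57946672-57947196 the LNCaP peak had 42 tags and a fold of 13.7, rank 303 of 21955, and the VCaP peak 22 tags and a fold of 8.49. At chr19:58193212-58193739 the values were 34 tags and 13.6 in LNCaP and 19 tags and 7.98 in VCaP, with summits 2 bp apart. The third, chr19:58038576-58039184, had folds of 12.2 in LNCaP and 6.02 in VCaP. In cluster 1 the peak at chr19:12035846-12036383 had 42 tags and a fold of 11.6 in LNCaP and 14 tags and 5.27 in VCaP, the most unequal pair of all clusters, with a log2 ratio of VCaP over LNCaP of -1.14. The other shared sites among the 10 highest LNCaP members were chr19:58144300-58144955 (11.3 in LNCaP and 7.45 in VCaP), chr19:57276509-57277040 (11.2 and 7.23), chr19:57018884-57019683 (11.1 and 5.53) and chr19:57078548-57079300 (10.9 and 6.25). The highest pileup of the LNCaP members, 49 tags, was at chr19:58892074-58892739, with a fold of 10.7 and 20 tags in its VCaP counterpart. Sites chosen as the highest of 1 list tend by that choice to be lower in the other.

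In the other clusters the shared site named is the pair whose poorer rank by fold in the full lists was the best, which in lists of unequal length rests mostly on the LNCaP rank. In cluster 1, chr19:12163547-12163957 had folds of 7.60 in VCaP and 9.72 in LNCaP, with summits 15 bp apart. In cluster 3, chr19:37178296-37178754 had 7.56 and 9.83, the highest of the cluster in both lists. Cluster 4 was led in both lists by chr19:44716520-44717008, with 6.66 in VCaP and 8.03 in LNCaP. By that rule cluster 5 gave chr19:53360781-53361208, with 6.38 and 8.59 and summits 6 bp apart, although the sites at 53561435 and 53238121 were higher in VCaP and about equal in LNCaP. For cluster 2 it was chr19:22034414-22034931, with 6.32 and 8.74.

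**Figure D4:**
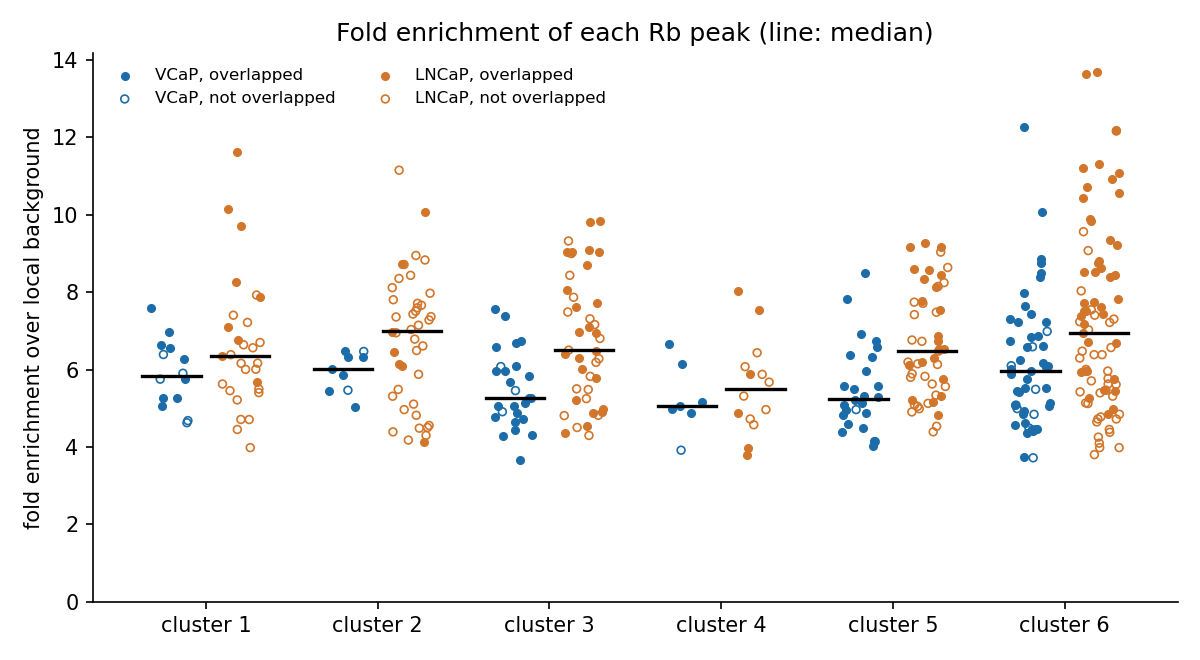
Fold enrichment over the local background (vertical axis) of each Rb peak in the 6 clusters, for VCaP (blue) and LNCaP (orange); filled points are overlapped by a peak of the other library, open points are not, and black lines are medians. The points above 12 are all in cluster 6, and clusters 3, 4 and 5 have none at 10 or more.

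Fold enrichment in the clusters had its median at 5.53 in VCaP (quartiles 4.92 and 6.55), compared with 5.74 (5.08 and 6.96) in the rest of chromosome 19 and 5.51 over all chromosomes. In LNCaP the median was 6.51 (5.40 and 7.88) in the clusters, 5.73 (4.84 and 6.93) in the rest of the chromosome and 6.00 over all. The medians of single clusters ran from 5.05 (cluster 4) to 6.00 (cluster 2) in VCaP and from 5.49 (cluster 4) to 6.997 (cluster 2) in LNCaP. Cluster 2, with the fewest peaks per Mb, thus had the highest median fold in both lists, by a small margin over cluster 6, with 5.96 and 6.95.

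The median pileup was 13 tags in VCaP (11 to 16 between quartiles, 8 to 38 in all) and 15 in LNCaP (11 to 19, 4 to 49 in all). Per 1000000 tags of the library these medians are 1.496 and 4.09, against 1.496 and 3.54 over all chromosomes. The scaling divides by 8691938 tags in VCaP and 3671482 in LNCaP, so nearly equal tag numbers become unequal on this scale. The rest of chromosome 19 had medians of 13 and 16 tags, and all chromosomes 13 and 13. Single clusters had medians of 10 to 14 tags in VCaP, and in LNCaP of 13 to 16 except for cluster 4, where the median was 6.5 tags (quartiles 6.0 and 8.5) and the highest peak had 14.

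LNCaP peaks were the longer. Median lengths in the clusters were 331 bp in VCaP (266 and 433) and 453.5 bp in LNCaP (329 and 624.5), against 336 and 434.5 bp in the rest of the chromosome and 313 and 395 bp over all chromosomes. The median LNCaP length was 572 bp in cluster 3, 525 bp in cluster 6, 506 bp in cluster 1, 421 bp in cluster 5, 394 bp in cluster 2 and 367 bp in cluster 4. VCaP medians ran from 251 bp in cluster 1 to 366 bp in cluster 6. The shortest length the caller gave was the modelled fragment length, 225 bp in VCaP and 241 bp in LNCaP, at which 10 VCaP and 20 LNCaP members stood. In total the members covered 48.1 kb in VCaP and 127.4 kb in LNCaP.

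At the 111 overlapping pairs, counted from the VCaP list, the median distance between summits was 86 bp (quartiles 35.5 and 158.5), and 92 of them (82.9%) lay within 200 bp. All 9 pairs of cluster 1 and all 7 of cluster 2 were within that distance, whereas cluster 3 had 16 of 23, with a median of 151 bp. The widest, 604 bp, was at chr19:36705974-36706198 in cluster 3, where the LNCaP peak was 1031 bp long. LNCaP had the higher fold at 89 of 111 pairs, or 80.2% (71.5 to 87.1), near the background of 80.8% over all pairs. In the rest of chromosome 19 it was 60.1% (55.2 to 65.0) of 404 pairs, an interval that does not overlap that of the clusters. The median log2 ratio of fold, VCaP over LNCaP, was -0.35 (median interval -0.44 to -0.24) in the clusters, -0.10 (-0.15 to -0.05) in the rest of the chromosome and -0.40 over all pairs. By cluster it was -0.42 in cluster 3, -0.39 in cluster 6, -0.36 in cluster 1, -0.27 in cluster 5, -0.17 in cluster 2 and -0.08 in cluster 4. Across the 111 pairs Spearman's rho of fold was 0.35 and Pearson's r of log2 fold 0.38, as a description of pairs that share 2 libraries.

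The local background differed between the clusters and the rest of chromosome 19 in LNCaP, and little in VCaP. This background is the number of tags in the 10 kb window that the peak caller used, computed back from pileup and fold, and it includes the peak's own tags. Scaled to 1000000 tags of the library, its median was 14.2 tags per 10 kb at LNCaP members (quartiles 10.6 and 19.1) and 22.7 (14.7 and 30.5) at LNCaP peaks in the rest of the chromosome. The corresponding VCaP values were 7.82 (6.44 and 9.43) inside and 7.48 (5.64 and 9.66) outside. Since fold is pileup over this background, the higher LNCaP fold in the clusters came with a pileup no higher than in the rest of the chromosome, 15 against 16 tags, and a lower background. The part of the local background in the differences of fold between regions was not tested further.

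In LNCaP the peaks called in the adjoining 1 Mb had the higher median background at most borders. The values are medians over called peaks, not over all sequence of the flanks. Median background at peaks in the 1 Mb below and the 1 Mb above cluster 1 was 25.6 and 29.4 tags per 10 kb per 1000000, against 17.2 within it. For cluster 3 the values were 28.9 and 27.5 against 16.3, for cluster 4 they were 11.98 and 16.2 against 5.04, and below cluster 2 the value was 25.9 against 11.8 within it. Cluster 6 had 14.7 against 23.7 below it, but the last of its 5 equal parts, with 24 of the 81 LNCaP peaks, had 27.6. Cluster 5 had 14.2 within it, 13.1 below and 25.3 above. In VCaP the values were 8.63 and 8.80 around cluster 3 against 7.94 within it, 7.71 and 8.86 around cluster 4 against 7.94, and 6.56 and 9.09 around cluster 5 against 8.51. Around cluster 1 they were 5.06 and 7.94 against 6.44, below cluster 2 the value was 6.56 against 4.60, and below cluster 6 it was 9.20 against 8.28.

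Cluster 4 stood apart in LNCaP by its low tag numbers. Its LNCaP peaks had a median background of 5.04 tags per 10 kb per 1000000, below the VCaP value of 7.94. In every other cluster the LNCaP value was the higher on this scale. In unscaled tags it was the higher only in clusters 1 and 2, and over all clusters the medians were 52.0 in LNCaP and 68.0 in VCaP. For 3 of the 14 LNCaP peaks of cluster 4 (21.4%) the scaled background was within 0.001 of the genome mean, 3.58. That is the lowest the caller uses, and 5.96% of all LNCaP peaks stood there. In VCaP this was so for 2 of the 9 peaks of cluster 2 (22.2%), as for 1.71% of all VCaP peaks. At the 6 pairs of cluster 4 the median log2 ratio of scaled background, VCaP over LNCaP, was 0.16. It was -1.10 over all pairs of the clusters and -1.66 in the rest of the chromosome. Pileups of the LNCaP peaks of cluster 4 were 4 to 14 tags, at a density of 20 per Mb, and 6 of the 14 were shared. Fold was the higher in LNCaP at 3 of the 6 pairs.

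**Figure D5:**
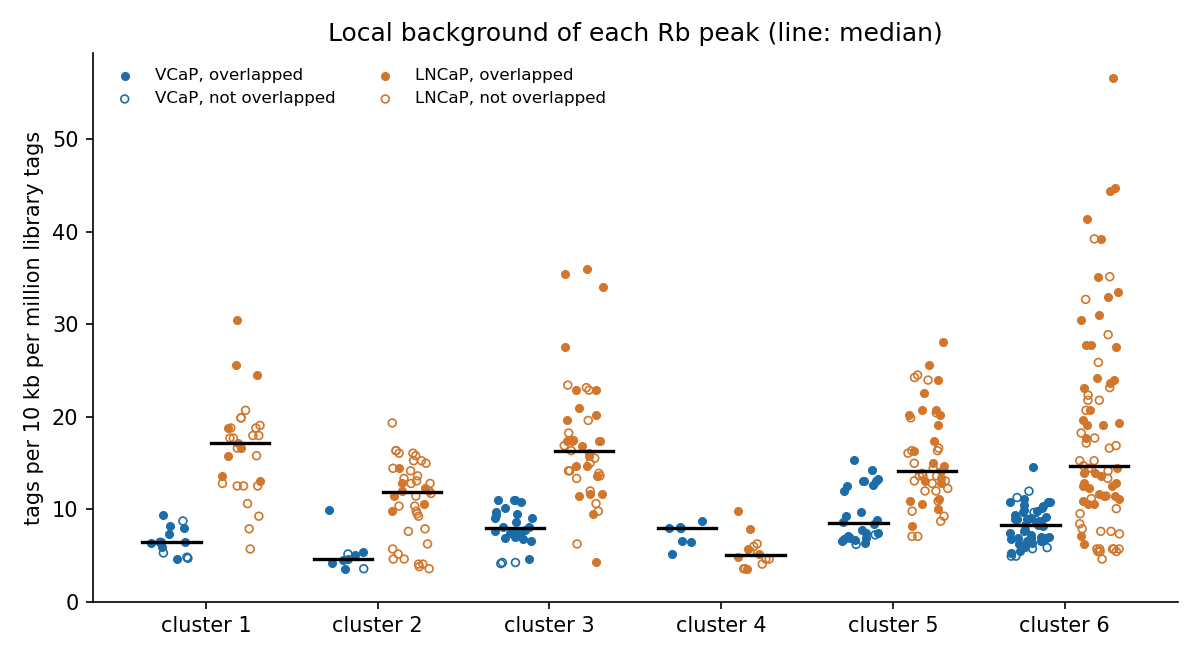
Local background of each Rb peak, as tags per 10 kb window per 1000000 tags of its library (vertical axis), in the 6 clusters for VCaP (blue) and LNCaP (orange); filled points are overlapped by the other library, open points are not, and lines are medians. On this scale the LNCaP median lies above that of VCaP in every cluster except cluster 4, where the medians are 5.04 and 7.94. In unscaled tags it does so only in clusters 1 and 2.

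The peaks nearest to the borders of the intervals, inside and outside, had overlapping ranges of fold. Not all were close to a border. The distance reached 1404 kb inside in VCaP and 3332 kb outside in LNCaP, both at cluster 2. The 12 peaks nearest inside a border had folds of 3.75 to 6.97 in VCaP and 4.30 to 8.15 in LNCaP, and the 11 nearest outside had 4.57 to 9.38 and 3.85 to 13.99. At the lower end of cluster 1 an LNCaP peak with a fold of 4.86 (chr19:11698563-11698838) lay 1.35 kb outside, and the first one inside, chr19:11708291-11708681, had 6.38. At the upper end of cluster 4 a shared peak at chr19:45004081-45004604 (fold 9.38 in VCaP and 7.58 in LNCaP) lay 4.28 kb outside in VCaP, above every member of that cluster in VCaP. Above cluster 2 the next LNCaP peak, with the fold of 13.99, was 3332 kb away. The next highest LNCaP fold outside was 7.58. That distant peak lay across the longest stretch without a peak of either list, 3.13 Mb, on the centromere side of cluster 2. Whether tags could map in this stretch was not examined. No peak of either list lay beyond cluster 6, but this cluster is next to the end of the long arm, so little sequence remains there.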

How the data were processed

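Rb was measured by ChIP-seq in VCaP and LNCaP, 1 library each, grouped by cell line as labelled. Peak calling by the authors used MACS 2.1.0.20140616 on single libraries and no control, per the file headers, at a q-value limit of 0.05, with 1 tag kept per position and a local background window of 10000 bp. The submitters' processing notes name MACS2, HOMER and build hg19; the aligner is not given in the sources used here. The deposited pileup is a coverage signal (tags over the summit, not scaled). The deposited fold enrichment is a ratio of pileup plus 1 to local background plus 1, from the authors' caller, and the local background was computed back from it. The deposited −log10 p and −log10 q values are from the same caller. The deposited summit files matched the peak tables in all 9423 and 21994 rows.

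With Python 3.11.15, pandas 2.3.3 and scipy 1.17.1, peaks on chromosomes 1 to 22 and X (9393 and 21955) were assigned by summit. Overlap required 1 bp, and the partner of highest fold was taken. Shares have Clopper-Pearson, densities exact Poisson, ratios exact conditional binomial and medians order-statistic 95% intervals. No test between the lines was possible. Functions were tested on simulated data. Alternatives were stricter peak limits, other overlap rules, shifted borders and lists of equal length.

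Named were, per list, the 10 members of highest fold, the longest, the highest in pileup and the closest and widest neighbours, per cluster the highest, the highest unshared and the best shared peak, and the peaks at the borders. Other peaks named by position were chosen after their values were seen. The members and intervals were chosen with earlier results of these data known.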

Additional observations from a re-analysis of the deposited data

How the results depend on the processing

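Of 56 recomputed values, 37 stayed within the main value's 95% interval or within 1.5 times a count, and 19 moved. No median log2 ratio of fold changed sign. Widening each interval by 100 kb at both ends moved none of the values. At −log10 q of at least 5 the VCaP peaks fell to 78, LNCaP had 2.56 peaks per VCaP peak and the LNCaP share overlapped was 32.0%. That limit, with fewer and stronger peaks kept, also gave a median pileup of 15 tags, length of 360.5 bp and fold of 6.33 in VCaP. In LNCaP it gave a length of 519.5 bp, a fold of 7.22 and a spacing of 37.5 kb. The LNCaP local background, here in tags per 10 kb not scaled to the library, was 56.0 against 52.0 in the main setting. The shares overlapped in VCaP and LNCaP were 53.4% and 27.5% with reciprocal overlap of at least 50%, and 69.9% and 36.0% with summits within 200 bp. With gaps of up to 1 kb the LNCaP share was 48.8%. With equal list lengths the VCaP and LNCaP shares were 57.9% and 53.9%. For none of these alternative shares is the share over all peaks given, so whether the clusters exceed it there was not tested. Without cluster 2, added after seeing the data, the densities were 15.9 and 27.7 per Mb. With 7 to 9 VCaP peaks in clusters 2 and 4, their shares and ratios are imprecise. No paired analysis was possible because each line has 1 library.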
